A study of Mus musculus with 21 samples.

Results

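Microglia sense nucleotides that leak from active or injured cells through purinergic receptors, and 8 genes of that system were examined: the P2Y receptors P2ry12, P2ry13 and P2ry6, the ion channel receptors P2rx4 and P2rx7, the adenosine receptor Adora3, the ectonucleotidase Entpd1, and Gpr34, a lysophospholipid receptor of the same branch of G protein-coupled receptors. The genes were chosen by name, with earlier results of these data known. All 8 were found among the 18079 genes of one deposited table and the 13297 genes of the other, and all 8 passed the filter on low values (a mean of at least 10) in both.

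The study sequenced 3′ tags of RNA from microglia, which are macrophages that settle in the brain early in development, so that a gene's count does not grow with the length of its transcript. One table compared uninjected females labelled C57BL/6 wild type (n = 7) with uninjected females of the Apoe-null strain B6.129P2-Apoetm1Unc/J (n = 4). The other compared males of the same Apoe-null strain whose left hemisphere had received recombinant apolipoprotein E (rAPOE, n = 5) or phosphate-buffered saline (PBS, n = 5). All mice were 12 to 18 weeks old, and the injected mice were killed 16 h after the injection. Both injection groups lack ApoE from conception in every cell type, so that comparison contrasts rAPOE with PBS in a brain that had developed without ApoE. The control was PBS, and no other protein was injected. The labels do not say which hemisphere each injection library came from, nor that each library is a separate mouse, so p-values reflect how libraries varied, which may be technical.

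In these cells ATP and ADP released at a site of damage draw microglial processes through P2ry12, which couples to inhibitory G proteins. P2ry13 is a close relative that also binds ADP, P2ry6 binds UDP and promotes phagocytosis, and P2rx7 opens at high ATP and leads to release of interleukin-1 beta. Entpd1 (CD39) on the cell surface degrades ATP and ADP, and the adenosine that further steps produce acts on receptors such as Adora3. Loss of P2ry12, P2ry13 and Gpr34 transcripts is a widely used sign that microglia have left the resting state.

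Apoe, the disrupted gene, had normalised counts of 1011 to 17163 in the wild-type libraries, 0 to 23.1 in the uninjected knockouts, 0 to 1.32 after PBS and 0 to 8.54 after rAPOE. Libraries held 2016972 to 3054976 reads in the wild type, 4247865 to 4969287 in the knockout, and 704225 to 1347501 in the injection table. Genes with any read numbered 13592 to 15248 in the wild type, 8117 to 10479 in the knockout and 7601 to 11342 in the injection table. The knockout libraries thus held fewer genes in more reads, and a count of 0 there need not mean that a gene is absent. Several libraries stood apart from their labels or groups. Of the 7 wild-type libraries labelled female, 6 held reads of the 4 Y-linked genes examined (11 to 36 reads), and library 8 held none, as did all 4 knockout libraries. The same 6 also had less Xist, the RNA of the inactive X (1127 to 1279, where library 8 and the knockouts had 1980 to 3292). Each of the 6 thus held both Xist (973 to 1509 reads) and Y-linked reads. How both came to be in the same library, by pooling of mice or otherwise, was not tested. Library 8 also had the lowest Apoe count (1011, against 13195 to 17163), and its summed choroid plexus markers were 16895, where the 6 others reached 43971 to 66203 and the knockout libraries 258 to 675. The other 6 wild-type libraries resembled each other closely. Over genes with at least 20 reads in a pair, pairs of them differed by 4.01 to 7.47 times the sampling noise (chi-square per degree of freedom). Knockout pairs differed by 34.6 to 68.1 times, and pairs with library 8 by 61.8 to 83.6 times. This measure grows with read depth, which was greater in the knockout. Injection pairs, though, had fewer reads than any wild-type library and differed by 9.20 to 32.3 times. Fits without library 8 take their wild-type spread from these 6 close libraries. Their small SEs and p-values may therefore reflect technical spread, since separate mice are not stated. In the injection table, PBS library 5 and rAPOE library 5 held no Y-linked reads and Xist at 979 and 718, although labelled male, while in the other 8 Y-linked reads numbered 83 to 374 and Xist had at most 1 read. The members' results are therefore given with and without wild-type library 8, rAPOE library 3 (described further on) and both libraries numbered 5.

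P2ry12 and P2ry13 lie side by side on chromosome 3 (minus strand), at 59216272 to 59262871 and 59207892 to 59210882 (GRCm38, GENCODE M21), inside the larger gene Med12l, which is read the other way. With all libraries their expression went opposite ways with genotype, though against wild-type library 8 alone both were lower. The 250 bases before their start sites are therefore shown, as RefSeq gives them for GRCm38.p6. The core GAGGAA of sites bound by the myeloid factor PU.1 (either strand) is in capitals. The window of Entpd1's inner start is added because Entpd1 rose with P2ry12 and holds 2 such cores. A match is a description of the letters, and binding was not measured here.

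P2ry13, chr3:59210883-59211132, minus strand: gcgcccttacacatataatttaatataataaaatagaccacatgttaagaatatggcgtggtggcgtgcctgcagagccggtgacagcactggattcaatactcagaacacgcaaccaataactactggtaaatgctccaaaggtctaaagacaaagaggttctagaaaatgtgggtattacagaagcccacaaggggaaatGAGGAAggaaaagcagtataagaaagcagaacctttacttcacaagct

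P2ry12, chr3:59262986-59263235, minus strand: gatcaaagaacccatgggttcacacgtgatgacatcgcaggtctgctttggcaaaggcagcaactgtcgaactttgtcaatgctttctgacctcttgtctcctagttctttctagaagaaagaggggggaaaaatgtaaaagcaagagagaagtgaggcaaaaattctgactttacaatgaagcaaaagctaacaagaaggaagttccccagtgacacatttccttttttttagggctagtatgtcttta

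Entpd1, chr19:40659520-40659769, plus strand: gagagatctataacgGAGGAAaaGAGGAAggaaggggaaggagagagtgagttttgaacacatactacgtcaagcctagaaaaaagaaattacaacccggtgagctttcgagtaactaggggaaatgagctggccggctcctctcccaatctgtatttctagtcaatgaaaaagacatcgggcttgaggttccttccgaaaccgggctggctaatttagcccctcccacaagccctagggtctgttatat

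The P2ry13 window holds 1 GAGGAA, its first base 48 bases before the start, and the P2ry12 window holds 0. The Entpd1 window holds 2, at 235 and 227 bases before the start, while the window before Entpd1's other annotated start holds 0. Adora3 holds 1, at 28 bases before its start, and the windows of P2rx4 and P2rx7 hold 0. Windows were found for 6 of the 8 genes. Of all 32851 promoter windows of this length, 23.3% hold the core. The related hexamer GGAAGT, which can overlap it, occurs in the P2ry12 and Adora3 windows and in 19.7% of all windows. The activator protein 1 site TGACTCA occurs in the windows of Adora3 and of 1 of the 2 P2rx7 starts, and in 4.46% of all windows. In the comparison described next P2ry13 fell and Entpd1, with cores before only 1 of its starts, rose. The part of the cores in these changes was not tested.

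The first comparison asks how microglia of a mouse without ApoE differ from wild-type microglia. In the knockout libraries P2ry12, P2ry6, P2rx7, Gpr34 and Entpd1 were higher, by 0.61 to 0.85 on the log2 scale, and P2ry13 was lower, at 2780 against 4033. P2rx4 and Adora3 did not pass. The counts are thus 5 of 8 higher and 1 of 8 lower (limma on log2 values, Benjamini-Hochberg adjusted p under 0.05 over all 10401 genes tested), beside 5.14% and 19.8% of all genes tested. The median difference of the 8 genes was 0.67 on the log2 scale, against −0.45 for all genes. DESeq2 gave the same counts (beside 6.22% and 15.5%), edgeR 3 and 0 (4.8% and 11.1%), and limma without library 8 gave 5 and 1 (7.64% and 23%). The higher members, though, rest on the 6 wild-type libraries other than 8. With library 8 as the lone wild-type library, 0 of 8 were higher and P2ry13 alone was lower, beside 0.421% and 0.231% of all genes. The counts were the same at an unadjusted p under 0.05, beside 5.26% and 5.55%. In that fit the lone library is assumed to vary like the knockout libraries. In bulk RNA, fewer cells of a type and less RNA per cell cannot be told apart.

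**Figure D1:**
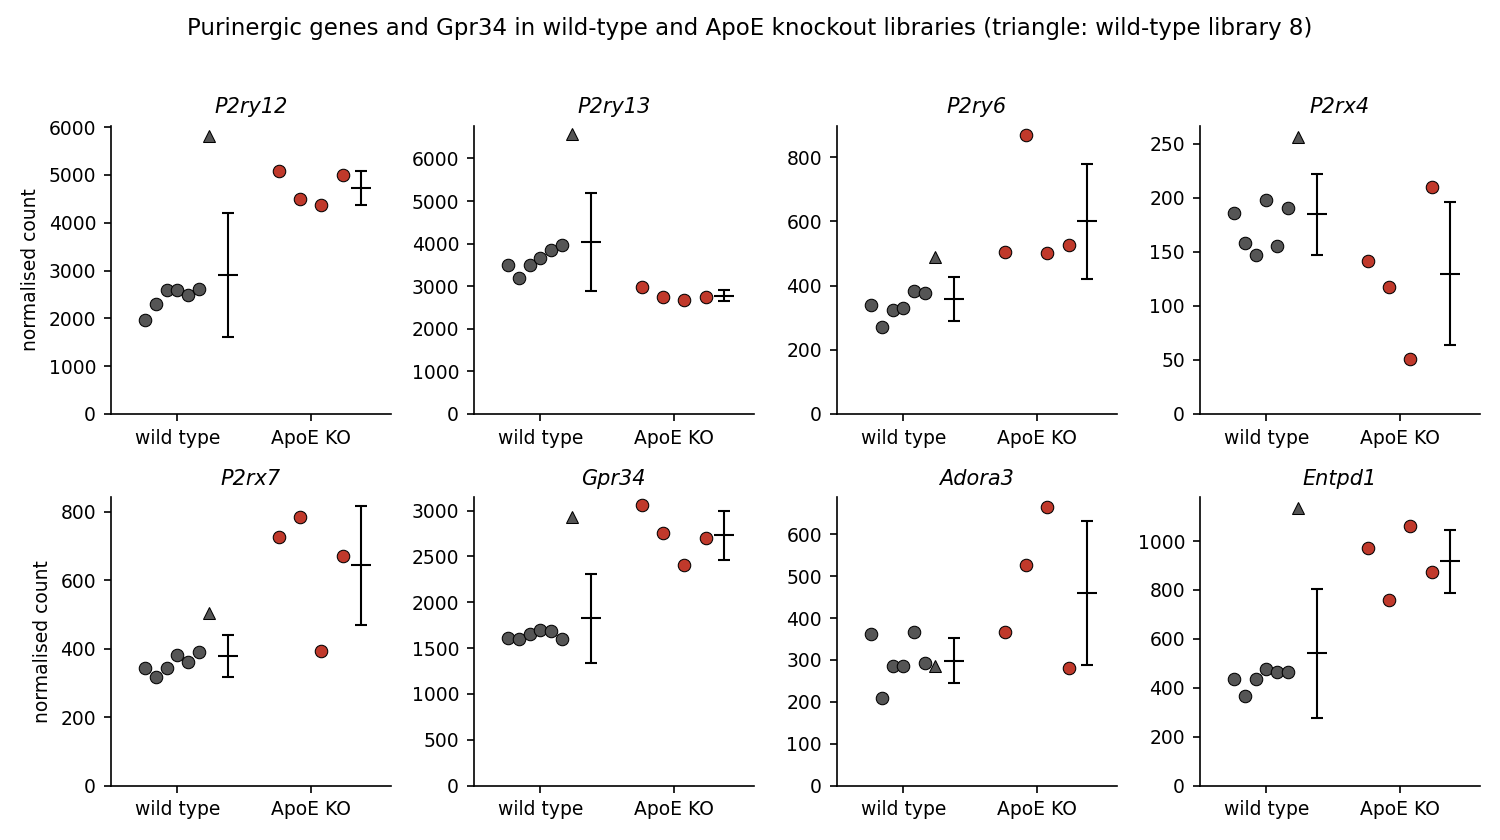
Normalised count (vertical axes, starting at 0) of the 8 genes in each of 7 wild-type (grey) and 4 ApoE knockout (red) libraries, with the mean and SD of each group as a black bar. The triangle, wild-type library 8, lies within or above the knockout values for P2ry12, Gpr34 and Entpd1, while for P2ry13 all 4 knockout libraries lie below all wild-type libraries.

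P2ry12, the ADP receptor of process movement, had a lowest, median and highest count of 1959, 2586 and 5821 in the wild type, and 5074, 4487, 4364 and 4995 in the 4 knockout libraries. The highest wild-type value is library 8, above all knockout libraries, and the other 6 reach no higher than 2604. The group means were 2908 ± 1305 (SD, n = 7) and 4730 ± 357 (SD, n = 4), a difference of 0.79 on the log2 scale (SE 0.23, 95% interval 0.30 to 1.28, limma adjusted p = 0.0214). Without library 8 it was 0.97 (SE 0.09, adjusted p = 3.91e-06), and against library 8 alone it was −0.30 (SE 0.17, adjusted p = 0.661). The call was also lost in edgeR (adjusted p = 0.0705), without knockout library 1 (0.0532) or 4 (0.0516), and when libraries were centred on 11 general microglial genes (0.59, adjusted p = 0.0621).

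P2ry13, its neighbour and fellow ADP receptor, went the other way. Its wild-type counts ran from 3194 through a median of 3665 to 6575 in library 8, and the knockout libraries held 2974, 2738, 2670 and 2737. All 4 knockout libraries were below every wild-type library, a separation in this direction shared by 10.6% of all genes tested. Means were 4033 ± 1149 (SD, n = 7) and 2780 ± 133 (SD, n = 4), a log2 difference of −0.50 (SE 0.17, 95% interval −0.87 to −0.13, limma adjusted p = 0.0469). The difference was −0.37 without library 8 (SE 0.07, adjusted p = 0.00139) and −1.24 against library 8 alone (SE 0.16, adjusted p = 0.0299), the one member that passed in both. Its call with all libraries was marginal: it missed with TMM rescaling (adjusted p = 0.0681), with edgeR (0.0873) and without any single library other than wild-type 2 or 8 (up to 0.0932).

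The shift of P2ry12 relative to P2ry13 shows most plainly within a library, where scaling cancels. A ratio does not give the direction of each gene, and against wild-type library 8 alone both were lower (−0.30 and −1.24). The ratio of P2ry12 to P2ry13 counts was 0.559 to 0.741 in 6 wild-type libraries, 0.885 in library 8, and 1.63 to 1.83 in the knockout. Library 8, high for both genes, thus lay much nearer to the other wild-type libraries in this ratio than in either count. The ratio was chosen after the values were seen and is given as a description. Med12l, the overlapping gene on the other strand, shares 9 exon bases with P2ry12 and 0 with P2ry13. At 28.97 to 144 in the wild type and 0 to 134 in the knockout, it was far below both (−0.77, limma adjusted p = 0.616).

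**Figure D2:**
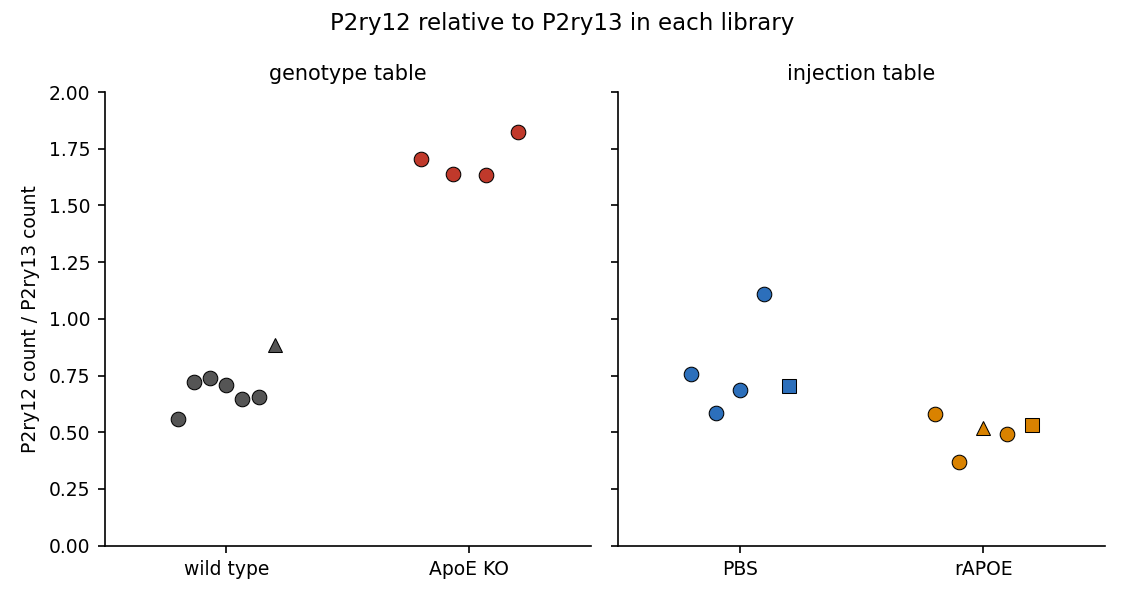
Ratio of P2ry12 to P2ry13 normalised counts in each library (vertical axis, from 0), in the genotype table (left) and the injection table (right). Triangles mark wild-type library 8 and rAPOE library 3 and squares the libraries numbered 5. The 4 knockout libraries lie at 1.63 to 1.83, above all 7 wild-type libraries, and the rAPOE libraries lie at 0.370 to 0.579, below all 5 PBS libraries.

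The UDP receptor P2ry6, on chromosome 7 at 100937630 to 100974649, had wild-type counts with a lowest, median and highest of 270.4, 338 and 487, and knockout counts of 506, 868, 501 and 527. Each knockout library was above every wild-type library, library 8 included, a separation shared by 3.67% of all genes, and knockout library 2 stood well above the other 3. The mean was 358 ± 68.1 (SD, n = 7) in the wild type and 600.4 ± 179 (SD, n = 4) in the knockout, a log2 rise of 0.72 (SE 0.19, 95% interval 0.32 to 1.13, limma adjusted p = 0.0124). Without library 8 the difference was 0.80 (SE 0.16, adjusted p = 0.00258). Against library 8 alone it was 0.26 (SE 0.35, adjusted p = 0.884), and centring on the general microglial genes ended the call (0.52, adjusted p = 0.0627).

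Gpr34 is X-linked (X, 13632089 to 13640858, plus strand) and lies inside the oppositely oriented Cask, with 0 shared exon bases. Its wild-type counts were 1603 to 1693 in 6 libraries and 2925 in library 8, and the knockout libraries held 3058, 2750, 2406 and 2705. Library 8 sits among the knockout libraries. The mean was 1824 ± 487 (SD, n = 7) in the wild type and 2730 ± 267 (SD, n = 4) in the knockout, a log2 rise of 0.61 (SE 0.17, 95% interval 0.26 to 0.96, limma adjusted p = 0.0148). Without library 8 the difference was 0.73 (SE 0.07, adjusted p = 5.18e-06), and against library 8 alone −0.10 (SE 0.18, adjusted p = 0.907). Markers of sex differ between the same groups of libraries, and their part in the level of this X-linked gene was not tested. Centring on the general microglial genes ended the call (0.41, adjusted p = 0.0661).

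The ion channel receptors P2rx7 and P2rx4 are neighbours on the plus strand of chromosome 5 (122643911 to 122691432 and 122707544 to 122729738) and differed in behaviour. P2rx7, the low-affinity ATP channel, had a lowest, median and highest count of 317, 362 and 504 in the wild type and 728, 785, 394 and 670.3 in the knockout. Knockout library 3 lay within the wild-type range and the other 3 above it. The mean was 378 ± 61.0 (SD, n = 7) in the wild type and 644 ± 173 (SD, n = 4) in the knockout, a log2 rise of 0.73 (SE 0.19, 95% interval 0.32 to 1.15, limma adjusted p = 0.0119). It was the one rise that held with each other scaling, filter and tool and with any 1 library left out (adjusted p up to 0.0456, and 0.00322 without library 8), though not against library 8 alone (0.31, SE 0.38, adjusted p = 0.874).

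P2rx4, a channel opened by lower ATP that is known for its rise in microglia after nerve injury, had wild-type counts with a lowest, median and highest of 147, 186 and 256. Knockout counts were 142, 117, 50.6 and 210, so 3 of 4 lay below the wild-type range. The means were 185 ± 37.3 (SD, n = 7) and 130 ± 65.7 (SD, n = 4), a log2 difference of −0.65 that did not pass (SE 0.31, 95% interval −1.32 to 0.02, limma adjusted p = 0.149). Knockout library 3, at 50.6, weighs heavily here, and without it the difference was −0.26 (adjusted p = 0.452). Without library 8 it was −0.57 (adjusted p = 0.196). It passed without knockout library 4 (−0.94, adjusted p = 0.0394) and when centred on the general microglial genes (−0.85, adjusted p = 0.0482).

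Entpd1, the surface enzyme that removes ATP and ADP (chromosome 19, 40612366 to 40741602, plus strand), resembled P2ry12 in its pattern. Wild-type counts were 368 to 476 in 6 libraries and 1136 in library 8, and the knockout libraries held 973, 761, 1060 and 874, all below library 8 and above the others. The mean was 540 ± 265 (SD, n = 7) in the wild type and 917 ± 129 (SD, n = 4) in the knockout, a log2 rise of 0.85 (SE 0.25, 95% interval 0.32 to 1.38, limma adjusted p = 0.0213). The difference was 1.05 without library 8 (SE 0.11, adjusted p = 1.13e-05) and −0.32 against library 8 alone (SE 0.23, adjusted p = 0.766). The call missed in edgeR (0.0704), without knockout library 1 (0.0518) or 3 (0.0534), and when centred on the general microglial genes (0.0561).

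Adora3 (chromosome 3, 105870858 to 105908926, plus strand) shares 779 exon bases with Tmigd3 on the same strand, so its reads cannot be assigned to one of the pair with certainty. Tmigd3 itself was listed at 0 to 9.03 in the wild type and at 0 in the knockout. Adora3 counts had a lowest, median and highest of 209, 286 and 368 in the wild type, with library 8 in the middle at 285, and were 366, 526, 665 and 281 in the knockout. The means were 298 ± 53.7 (SD, n = 7) and 459 ± 171 (SD, n = 4), a log2 difference of 0.57 that did not pass (SE 0.23, 95% interval 0.08 to 1.05, limma adjusted p = 0.0848). Knockout libraries 1 and 4 lay within the wild-type range and the other 2 above it. The value depended on single libraries: without knockout library 4 the gene passed (0.78, adjusted p = 0.0200), and without knockout library 3 it was 0.36 (adjusted p = 0.252). Without library 8 it was 0.56 (adjusted p = 0.0887).

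Amounts of microglial RNA and of other cells differed beside these results between the knockout and 6 wild-type libraries, those with Y-linked reads. Library 8 lay within the knockout range in its microglia, monocyte, neuron, mast cell, B cell, oligodendrocyte and endothelial marker sums. It lay above that range for choroid plexus, astrocyte (1264 against 540 to 1008), border macrophage, pericyte and T cell markers. For neutrophil markers and for the 11 general microglial genes described next it lay below the knockout range. The summed level of 11 general microglial genes (among them Csf1r, Cx3cr1, Aif1, C1qa and Tyrobp), none of them a member, was 94049 to 105141 in the wild type and 109779 to 127913 in the knockout, and 3 of the 11 rose, Cx3cr1 (0.50) and the complement gene C1qc (0.69) among them. A list of 10 microglia markers, which includes P2ry12 and Gpr34, summed to 50000 to 53413 in 6 wild-type libraries, 68801 in library 8 and 68443 to 80855 in the knockout. Of its 8 genes that are no members, 4 rose and 0 fell, the homeostatic markers Tmem119 (1.23) and Fcrls (0.89) among them. Of all genes tested, 5.14% rose and 19.8% fell. Centred on the 11 general genes, 1 member (P2rx7) was higher and 2 (P2ry13 and P2rx4) were lower, beside 2.69% and 25% of all genes, and no member changed its direction. With library 8 left out as well, the centred counts were 5 higher and 1 lower, beside 4.42% and 29.3%. Markers of all 12 other cell types listed were detected in the wild type. Of 51 such genes tested 30 fell and 0 rose, beside 19.8% and 5.14% of all genes. Without library 8, 35 fell, beside 23% of all genes. Monocyte markers summed to 1165 to 1368 in 6 wild-type libraries, 36.1 in library 8 and 0 to 178 in the knockout (Plac8, S100a4 and Vcan at 0 in all 4), and neuron markers to 695 to 931, 46.9 and 0 to 64.6 (Map2 and Rbfox3 at 0). Mast cell markers summed to 249 to 273, 14.4 and 0 to 31.0 (Cpa3, Kit and Cma1 at 0), while neutrophil markers summed to 1788 to 2325, 143 and 1418 to 5325. The part of these cells in the members' differences was not tested.

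Over 9 further lists of the pathway, 53 genes were tested in the genotype table, and 9 were higher and 5 lower, beside 5.14% and 19.8% of all genes. Without library 8 these counts were 13 and 8 of 53 (beside 7.64% and 23%), and against library 8 alone 0 and 1 of 49 (beside 0.421% and 0.231%), the lower gene being an ectoenzyme. Most other receptors were too low to test. Of the other P2Y receptors, 5 of 6 were in the table and 1 was tested, P2ry10b, at 1.54 (limma adjusted p = 0.0589, and 1.77 with 0.0255 without library 8). P2ry2, P2ry10 and P2ry14 had 103, 38 and 45 reads over the wild type and 0 over the knockout. Without library 8 the first of these reached the filter and passed as lower (P2ry2, adjusted p = 3.91e-06), as did the adenosine receptor gene Adora2a (8.52e-06). P2rx1 was the one tested of 5 other P2X receptors (−0.85, adjusted p = 0.591). Of the other adenosine receptors Adora1, the inhibitory receptor prominent in neurons, fell by 4.76 on the log2 scale, with means of 59.8 ± 33.0 (SD, n = 7) and 2.45 ± 4.90 (SD, n = 4) (limma adjusted p = 8.29e-04), with reads in 1 of 4 knockout libraries. Of 5 tested ectoenzymes beyond Entpd1, Enpp2, the autotaxin that choroid plexus makes in quantity, fell from 13591 to 147 (−6.51, adjusted p = 1.73e-09). The other 4 did not pass.

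Enzymes and transporters that handle adenosine and inosine included 2 rises among 5 tested, beside 5.14% of all genes. Pnp, purine nucleoside phosphorylase, rose by 1.39 on the log2 scale, with means of 97.3 ± 20.8 (SD, n = 7) and 261 ± 94.3 (SD, n = 4) (limma adjusted p = 0.00103), with all 4 knockout libraries above the wild type. Slc29a1, the equilibrative nucleoside transporter, rose from 119 to 269 (1.09, adjusted p = 0.0106). Of 6 tested genes of ATP release, the channel gene Calhm2 rose from 69.4 to 173 (1.27, adjusted p = 0.00334). The gap junction gene Gja1, counted here also among astrocyte markers, fell from 40.6 to 4.97 (−3.68, adjusted p = 0.00261).

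Below the receptors, 4 of 21 genes of inhibitory G protein signalling rose and 2 fell, beside 5.14% and 19.8% of all genes. Without library 8, 6 of 20 rose and 2 fell, beside 7.64% and 23%. Rgs10, which shortens G protein signals, rose from 993 to 1433 (0.53, adjusted p = 0.00192), and Kcnk13, the potassium channel THIK-1 that sets microglial surveillance, from 80.6 to 179 (1.11, adjusted p = 0.00341). The small GTPase Rap1b, which P2ry12 activates in platelets, rose by 0.62 (adjusted p = 0.00412), and the G protein subunit Gng10 by 1.38 (adjusted p = 0.0185). Gnai1 fell by 3.92 (adjusted p = 2.62e-04), with 0 reads in all knockout libraries, and Rgs18, a regulator that shortens such signals, fell by 3.45 (adjusted p = 0.0297). The Rgs18 call was lost without any single library other than wild-type 8 or knockout 4, and that of Gng10 without knockout library 1 or 4. Gnai3 (0.86, adjusted p = 0.0137), Gng2 (0.82, 0.0162) and Gnb1 (−0.36, 0.0185), which encode G protein subunits, passed without library 8 but not with it. Genes below the filter on the mean once a library was left out are not counted as lost. Without library 8 the 2 that fell include Gnb1, so Gnai1 and Rgs18 did not both remain tested. The median of the 21 was 0.28. Of 9 inflammasome genes below P2rx7, Txnip rose from 1438 to 3105 (1.12, adjusted p = 2.16e-04) and Nek7, which binds Nlrp3, from 189 to 333 (0.85, adjusted p = 0.00740). Nlrp3 itself, Casp1 and Il1b did not pass with all libraries. Without library 8, Il1b passed as lower (−3.29, adjusted p = 0.0209) and the adaptor Pycard as higher (0.56, adjusted p = 0.0427). Of 4 tested genes that make or bind lysophosphatidylserine, 0 passed by limma, edgeR or DESeq2, and 0 at an unadjusted p under 0.05.

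**Figure D3:**
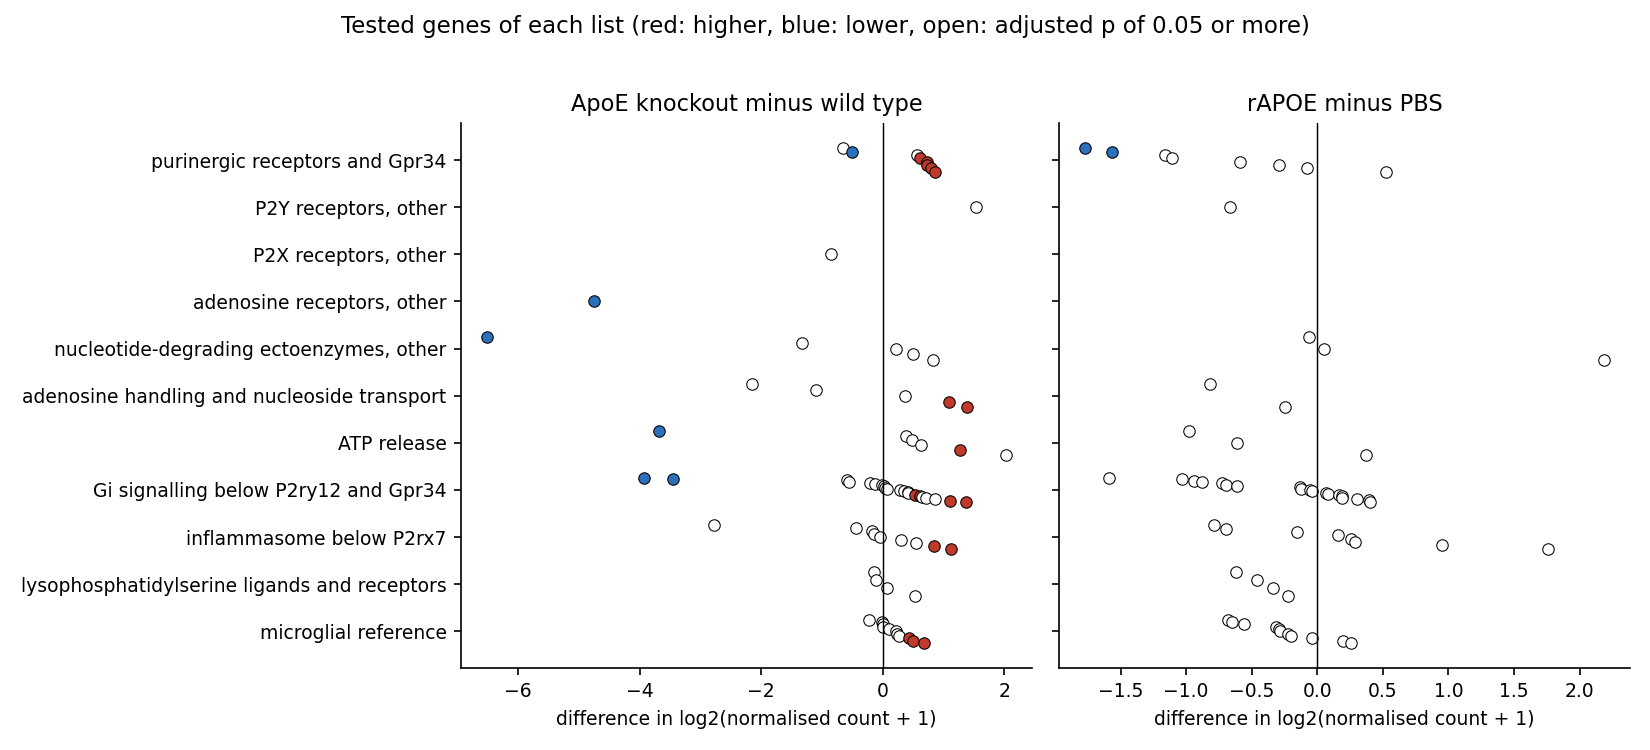
Difference in log2(normalised count + 1) of every tested gene of each pathway list, knockout minus wild type (left) and rAPOE minus PBS (right, on another scale), with one point per gene. In the genotype comparison 5 of 8 purinergic genes are higher and 1 lower, and in the injection comparison 2 are lower while no gene of the other lists passed.

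Across the 11 libraries, the genes most like the mean log2 level of the 8 members, among 3490 genes with a mean of at least 100, were Mgat4a (r = 0.964), Ssh2 (r = 0.960), the macrophage factor Maf (r = 0.953), the cyclooxygenase Ptgs1 (r = 0.953) and the corepressor Nrip1 (r = 0.951). These points share library 8, the scaling and the group difference, so the values describe these libraries. The gene most like a member was Mylip for P2ry12 (r = 0.987), mt-Nd5 for P2ry13 (r = 0.969), Fscn1 for P2ry6 (r = 0.962), Upf3b for P2rx4 (r = 0.955), Tppp for P2rx7 (r = 0.966), Dgcr2 for Adora3 (r = 0.930) and the TGF-beta receptor Tgfbr1 for Entpd1 (r = 0.980).

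The second comparison asks what injected rAPOE does to microglia of an ApoE-free brain. P2ry12 and Gpr34 were lower after rAPOE than after PBS, by 2.89-fold and 2.50-fold in the mean, and in both all 5 rAPOE libraries were below all 5 PBS libraries. P2ry13 and Entpd1 had means 1.95-fold and 1.96-fold lower and did not pass. The counts are 2 of 8 lower and 0 of 8 higher (limma, adjusted over 7066 genes tested), beside 0.113% and 0.368% of all genes, and 4 lower and 0 higher at an unadjusted p under 0.05, beside 5.99% and 5.22%. DESeq2 called 2 lower and 0 higher (beside 0.637% and 0.991%), and edgeR 0 in either direction (0.0142% lower, 0.326% higher), with 4 lower and 0 higher unadjusted (4.25% and 3.89%). The median difference of the 8 was −0.85, against −0.01 for all genes. Without rAPOE library 3, 3 were lower (P2ry13 added) and 0 higher, beside 0.539% and 0.51% of all genes. Without both libraries numbered 5, 0 were lower and 0 higher, beside 0.0142% and 0.142%, with 4 lower and 0 higher at an unadjusted p under 0.05 (4.77% and 4.03%).

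**Figure D4:**
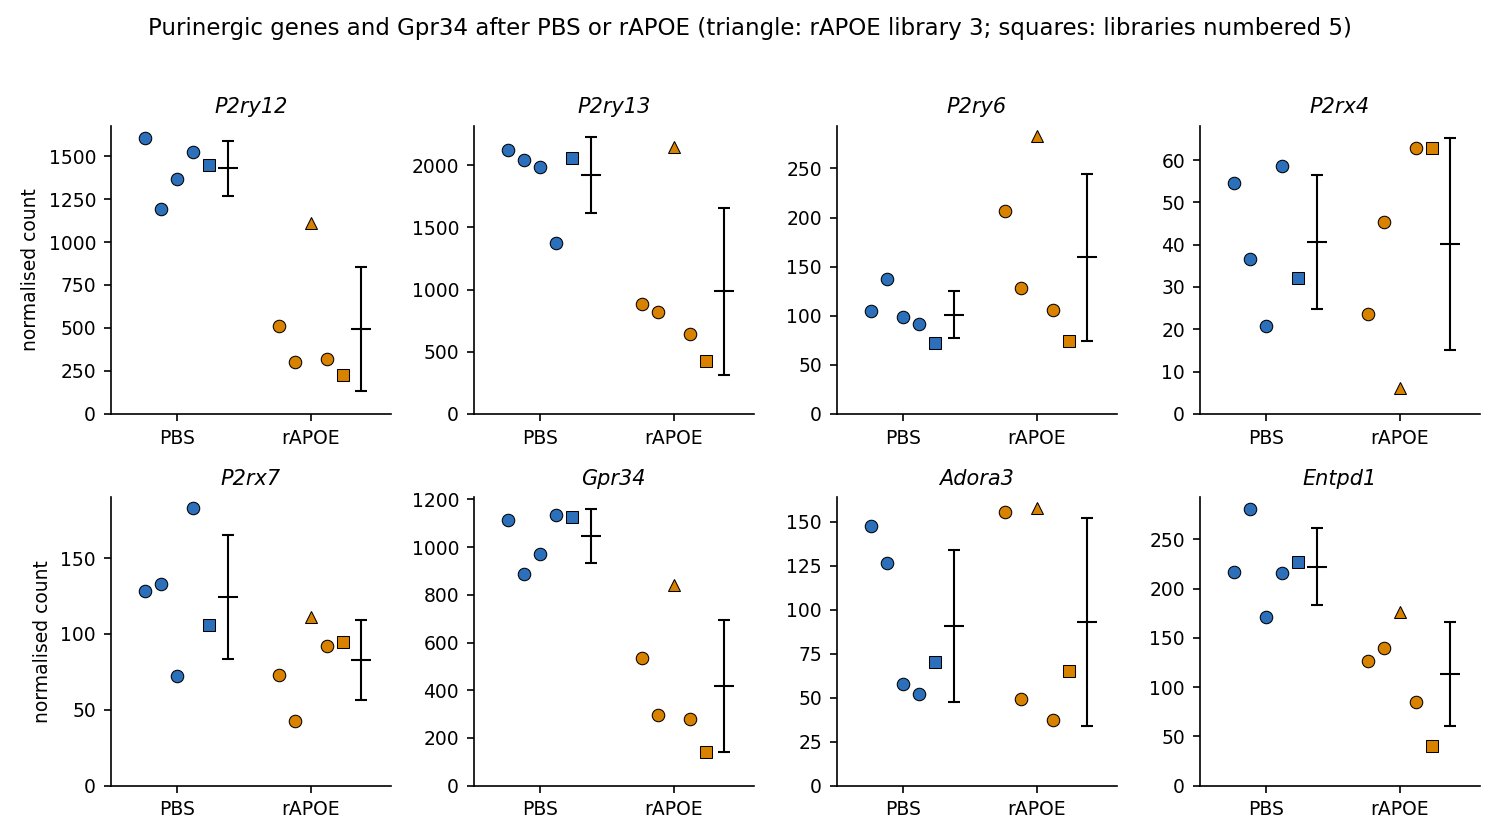
Normalised count (vertical axes, starting at 0) of the 8 genes in each of 5 PBS (blue) and 5 rAPOE (orange) libraries, with the mean and SD of each group as a black bar. The triangle, rAPOE library 3, is the highest rAPOE library for P2ry12, P2ry13 and Gpr34, and the squares are the libraries numbered 5.

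P2ry12 counts were 1603, 1191, 1368, 1526 and 1450.5 after PBS and 514, 302, 1110, 319 and 226 after rAPOE. The groups did not overlap, a separation in this direction shared by 1.54% of all genes tested (1.59% in the other direction), and rAPOE library 3, at 1110, came close to the lowest PBS library. The mean was 1428 ± 159 (SD, n = 5) after PBS and 494 ± 360 (SD, n = 5) after rAPOE, a log2 difference of −1.77 (SE 0.31, 95% interval −2.42 to −1.12, limma adjusted p = 0.00663). Without rAPOE library 3 the difference was −2.12 (SE 0.24, adjusted p = 6.49e-05). The call missed with edgeR on all libraries (−1.54, adjusted p = 0.0651) and without both libraries numbered 5 (−1.54, adjusted p = 0.0520).

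Gpr34 counts again had rAPOE library 3 highest and rAPOE library 5 lowest of their group, with 1113, 886, 973, 1134 and 1127 after PBS and 534, 296, 843, 279 and 143 after rAPOE. The groups did not overlap, though rAPOE library 3 and PBS library 2 were only 843 and 886. The mean was 1047 ± 112 (SD, n = 5) after PBS and 419 ± 276 (SD, n = 5) after rAPOE, a log2 difference of −1.57 (SE 0.33, 95% interval −2.26 to −0.87, limma adjusted p = 0.0325). Without rAPOE library 3 it was −1.88 (SE 0.29, adjusted p = 0.00197). This call was the less stable of the pair: it missed in edgeR (adjusted p = 0.149), with 7 of the 10 libraries left out one at a time (up to 0.118) and without both libraries numbered 5 (−1.22, adjusted p = 0.171).

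P2ry13 counts were 2120, 2043, 1989, 1377 and 2057 after PBS and 887, 816, 2147, 646 and 427 after rAPOE. PBS library 4 was low within its group, and rAPOE library 3 lay above every PBS library while the other 4 lay below all of them. The means were 1917 ± 305 (SD, n = 5) and 985 ± 674 (SD, n = 5), a log2 difference of −1.16 that did not pass (SE 0.31, 95% interval −1.80 to −0.53, limma adjusted p = 0.109). Without rAPOE library 3 it passed, at −1.50 (SE 0.24, adjusted p = 0.00281), and with all libraries it passed with a pseudocount of 8 (0.0305), quantile rescaling (0.0273) and the replicate block (0.0442). In contrast to the genotype fit with all libraries, P2ry12 and P2ry13 differed in the same direction here. Their ratio was 0.583 to 1.11 after PBS and 0.370 to 0.579 after rAPOE. All 5 rAPOE libraries thus lay below all 5 PBS libraries in the ratio, library 3 included, by a margin that at its narrowest is 0.579 against 0.583.

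Entpd1 counts were 217, 281, 171, 216 and 226 after PBS and 126, 140.2, 177, 84.6 and 40.4 after rAPOE, so 4 of 5 rAPOE libraries lay below the PBS range. The means were 222 ± 39.1 (SD, n = 5) and 114 ± 52.5 (SD, n = 5), a log2 difference of −1.11 (SE 0.36, 95% interval −1.84 to −0.37) with a limma adjusted p of 0.225. The ATP channel P2rx7 was at 72.0 to 183 after PBS and 42.4 to 111 after rAPOE (−0.59, 95% interval −1.35 to 0.17, adjusted p = 0.580).

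P2ry6 was the one member with a difference above 0 and stood at 72.1 to 138 after PBS and 73.8 to 283 after rAPOE (0.52, 95% interval −0.24 to 1.28, limma adjusted p = 0.631). Its highest value was again in rAPOE library 3, without which it was 0.27 (adjusted p = 0.817). Adora3 overlapped throughout, at 52.0 to 147 and 37.2 to 158 (−0.08, 95% interval −1.03 to 0.87, adjusted p = 0.973). P2rx4 rested on as few as 6 reads in a library, at 20.8 to 58.6 and 6.02 to 63.0 (−0.29, 95% interval −1.62 to 1.03, adjusted p = 0.904). Its lowest value was in rAPOE library 3, and without that library the difference was 0.25 (adjusted p = 0.891). Each of these intervals reaches a difference of over 1 on the log2 scale, so they do not show that the levels were alike.

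**Figure D5:**
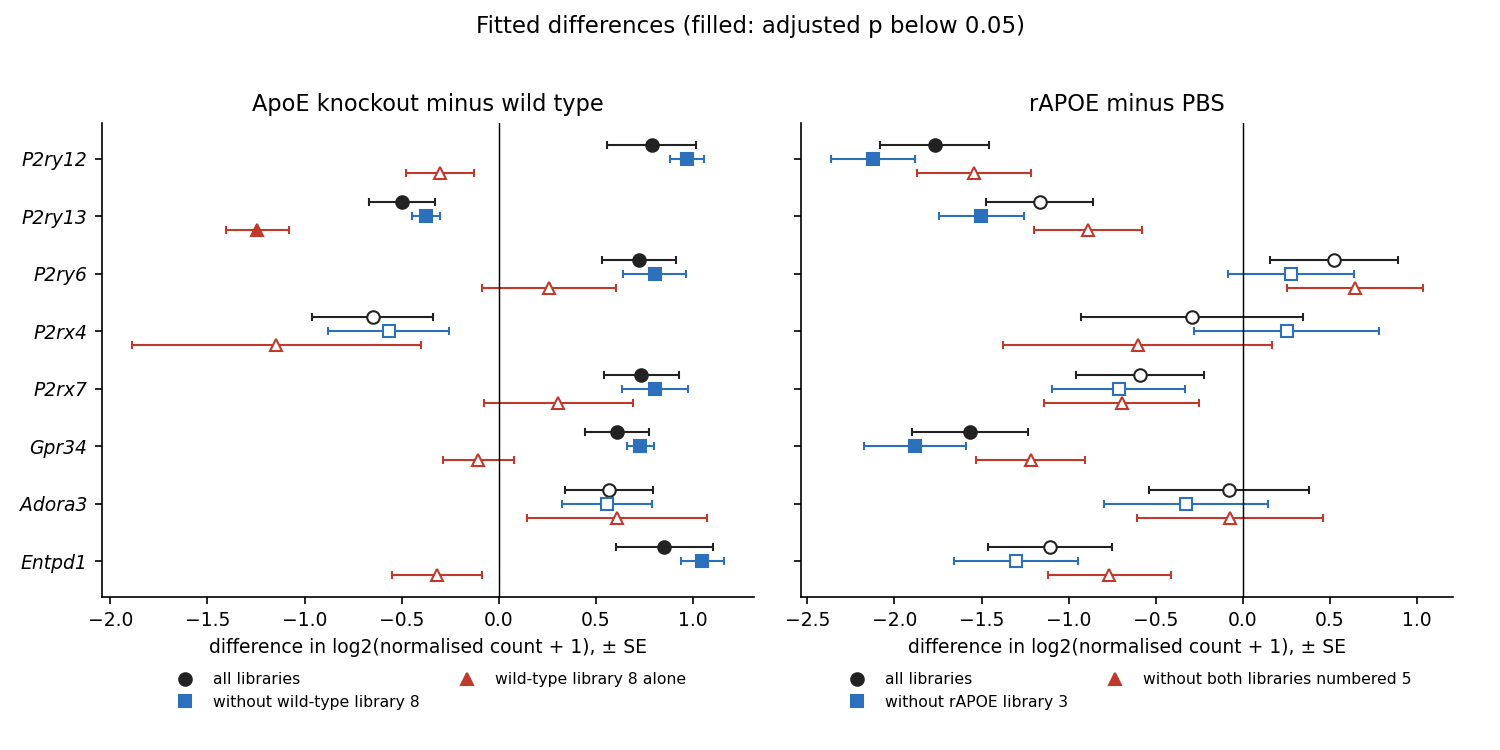
Fitted difference in log2(normalised count + 1) of each gene with its SE (horizontal bars), knockout minus wild type (left) and rAPOE minus PBS (right), in the fits with all libraries and with the libraries that stand apart left out or used alone. Filled symbols have an adjusted p below 0.05: P2ry13 is lower than 0 in all 3 genotype fits, while P2ry12, Gpr34 and Entpd1 change sign against wild-type library 8 alone.

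The lower P2ry12 and Gpr34 counts after rAPOE stood beside lower levels of other microglial genes. The 11 general microglial genes summed to 31512 to 36803 after PBS and 22525 to 32338 after rAPOE, with rAPOE library 3 the highest of its group. Their median log2 difference was −0.28, and 0 of the 11 passed by limma, with 3 lower at an unadjusted p under 0.05 and 1 lower in DESeq2. The list of 10 microglia markers, P2ry12 and Gpr34 included, summed to 21072 to 25276 after PBS and 10848 to 23047 after rAPOE, again highest in rAPOE library 3. Of its 8 genes that are no members, all 8 had differences below 0 (median −0.61), 1 passed as lower, the lectin gene Siglech (−1.41, adjusted p = 0.0261), and 6 were lower at an unadjusted p under 0.05. Centred on the 11 general genes P2ry12 still passed (−1.52, adjusted p = 0.0153) and Gpr34 did not (−1.31, adjusted p = 0.0575), beside 0.0283% of all genes lower and 0.609% higher. With rAPOE library 3 left out as well, 3 members were lower and 0 higher, beside 0.128% and 0.907%. Astrocyte markers summed to 154 to 203 after PBS and 122 to 249 after rAPOE, monocyte markers to 4.80 to 21.7 and 1.18 to 56.7, and the 9 remaining lists to at most 157 in any library. The choroid plexus list, with 1 of its 6 genes in this table, stood at 0.827 to 203 and 0 to 442, highest in each group in library 5. The rAPOE library 5 also had the lowest P2ry12, P2ry13, Gpr34 and Entpd1 of all 10 libraries, while PBS library 5 was not the lowest of its group for any of these. The part of these cells and of the lower microglial sums in the members' differences was not tested.

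Of the wider pathway, 40 genes of 9 lists were tested in the injection table and 0 passed by limma, with 6 lower and 1 higher at an unadjusted p under 0.05 (beside 5.99% and 5.22% of all genes). Rgs2, a G protein regulator, came nearest, at 1401 ± 212 (SD, n = 5) after PBS and 718 ± 281 (SD, n = 5) after rAPOE (−1.03, limma adjusted p = 0.0599). Without rAPOE library 3 it passed (−1.22, adjusted p = 0.00713), as did Il1b, the cytokine released after P2rx7 opens, which was higher (2.15, adjusted p = 0.0317, and 1.76 with adjusted p = 0.155 with all libraries). At an unadjusted p under 0.05, 4 of 19 inhibitory G protein genes were lower and 0 higher. DESeq2 called 2 of them lower, and 1 inflammasome gene higher, beside 0.637% of all genes lower and 0.991% higher.

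Across the 10 libraries, the genes most like the mean log2 level of the members, among 1245 genes with a mean of at least 100, were Rgs10 (r = 0.971), Ypel3 (r = 0.967), Serpine2 (r = 0.953), the Notch target Hes1 (r = 0.949) and Cebpg (r = 0.949). The gene most like P2ry12 was the chemokine Ccl6 (r = 0.970), that for P2ry13 Serinc3 (r = 0.991), that for Gpr34 Sparc (r = 0.966) and that for Entpd1 Mid1ip1 (r = 0.940). For P2ry6, P2rx4, P2rx7 and Adora3 these were Bcl10 (r = 0.934), P4hb (r = 0.940), Scoc (r = 0.887) and Lrrc17 (r = 0.886). Within the 5 rAPOE libraries P2ry12, P2ry13, P2ry6 and Gpr34 varied together from library to library (r of 0.939 to 0.992 between pairs). Among the 4 without library 3 these values were 0.831 to 0.983, and they share the scaling. With these 4 genes in the 5 rAPOE libraries, r was 0.760 to 0.887 for Entpd1 and 0.652 to 0.796 for Adora3. It was 0.133 to 0.392 for P2rx7 and −0.978 to −0.907 for P2rx4. Within the 5 PBS libraries the pairs of the same 4 genes ran from −0.788 to 0.924.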

How the data were processed

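Microglial RNA had been sequenced with a 3′ tag kit (QuantSeq FWD), per the labels' protocols. The authors deposited 2 tables of normalised counts, a signal that is the read count of a gene scaled per library, for 11 and 10 libraries. The submitters' processing notes name HTSeq, Picard 1.8.4, R 3.2.3, DESeq2 and the build GRCm38.p3. Not given in the sources used here are the aligner, the use of strand and the handling of shared tags. The tables were normalised separately, so no level was compared between them.

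Within each library all deposited values were whole multiples of 1 step (within 0.01), so reads were recovered as value divided by step. Reads carry no molecular identifiers. Of 18221 entries in the genotype table, 22 with dates in place of names (0.0966% of the values) and 120 at 0 throughout were left out.

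Values were analysed in R 4.3.3 as log2(normalised count + 1) with limma 3.58.1 (lmFit, then eBayes with trend). A gene was tested if its mean over the table reached 10. The log2 differences understate the change of low genes. The threshold was a Benjamini-Hochberg adjusted p under 0.05 over all genes tested. The fits were tested on simulated data. Alternatives were other pseudocounts (0.5 and 8), filters and scalings, centring on 11 general microglial genes, edgeR 4.0.16 and DESeq2 1.42.0 on recovered reads, each library left out, and a block by replicate number. Further fits without wild-type library 8 or rAPOE library 3 and the one with wild-type library 8 alone were chosen after seeing the data. The text names all members, the passing genes of each pathway list or the 4 with the smallest adjusted p (marker lists, which the rule covers too, are given by sums, counts and a few names), and the genes most correlated with the members, except that the one for Gpr34 in the genotype table is not reported here. Members and lists were chosen with earlier results of these data known. Replicate numbers were compared as a possible pairing. Promoter windows come from RefSeq, of which only the bases before the start were used, and positions from GENCODE M21.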

Additional observations from a re-analysis of the deposited data

Results flagged for a closer look

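In 32 groups of 4 to 7 libraries, 1 for each gene and group, the highest or lowest library was compared with the rest of its group (Dixon's 95% criterion on the gap over the range), and 8 groups had a library set apart. Chance gives about 1 in 20 groups if values are normal and groups independent. Here the 8 genes share the same libraries, so the groups are not independent. Of the 8, 5 were in wild-type library 8: P2ry12 at a normalised count of 5821, P2ry13 at 6575, P2rx7 at 504, Gpr34 at 2925 and Entpd1 at 1136, each the highest of its group. Knockout library 2 was set apart for P2ry6, at 868. In the injection table both sets for P2ry13 held one, PBS library 4 at 1377, the lowest of its group, and rAPOE library 3 at 2147, the highest.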

How the results depend on the processing

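With all libraries 5 members were higher and 1 lower in the knockout. The higher count was 1 when centred on the general microglial genes, 3 in edgeR, 0 against wild-type library 8 alone, and 3 to 5 with 1 library left out. The lower count was 0 with TMM rescaling and in edgeR, 2 when centred, and 0 to 1 with 1 library left out. Of all genes 2596 passed (535 higher, 2061 lower), against 1289 with a filter at 50, 1658 in edgeR, 62 against library 8 alone, and 2007 to 3169 with 1 library left out. Quantile rescaling moved the median of all genes from −0.45 to 0.09 and the split to 920 and 1027, and centring moved the median to −0.65. The reversals against library 8 alone were P2ry12 (−0.30), Gpr34 (−0.10) and Entpd1 (−0.32). After injection 2 members were lower, against 1 when centred, 0 in edgeR (4 at an unadjusted p under 0.05), 0 without both libraries numbered 5, and 1 to 3 with 1 library left out. Genes called there, 34 in all, were 70 with a pseudocount of 8, 67 with quantile rescaling, 115 in DESeq2, 11 without both libraries numbered 5, 52 in edgeR and 73 when centred, both without rAPOE library 3, and 16 to 74 with 1 library left out. P2rx4 reversed without rAPOE library 3 in limma (0.25), edgeR (0.27) and centred (0.54). Adora3, near 0, reversed when centred (0.17), in edgeR (0.024) and DESeq2 (0.033), and without PBS library 1 (0.13) or 2 (0.07) or rAPOE library 2 (0.08) or 4 (0.18). With 1 library left out P2rx4 ran from −0.54 to 0.25 and Adora3 from −0.33 to 0.18. The cause was not tested. With the replicate block 5 members were higher and 1 lower in the genotype table (1823 genes called), and 3 were lower in the injection table (52 genes called there), P2ry13 being the one added (adjusted p = 0.0442). Deviations of libraries with the same number correlated at −0.0295 to 0.0200 and −0.00418 to 0.185, and numbers were not taken as pairs since not all exceeded 0.1. In the injection table numbers 4 (0.185) and 5 (0.112) did, each correlating best with its own number, and both libraries numbered 5 lack Y-linked reads. The lowest depth of a member is that of P2rx4 after injection, at 6 to 89 reads a library. Over genes with at least 20 reads in a pair, injection replicates differed by 9.20 to 32.3 times the sampling noise.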
